A study of Mus musculus with 8 samples.

Results

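The 941 widest of 26620 counted regions of open chromatin in mouse embryonic tailbuds, those of 2000 bp or more, were described. The 26620 are the autosomal regions over which the study counted its ATAC-seq libraries. ATAC-seq uses the Tn5 transposase to insert sequencing adapters into open chromatin, so a region's count follows how accessible its DNA is. Tailbuds were taken from embryos at embryonic day 9.5 of CD-1 mice, an outbred stock. The wild-type group (WT/WT, called WT) had 4 libraries, and the mutant group, Sd/Sd, carried 2 copies of the Danforth's short tail mutation and also had 4. Some libraries were pools of tailbuds, but which ones the labels do not say. Nothing says which embryos shared a litter either, so each p-value measures only how these 8 libraries spread. Members were chosen by width alone, end minus start in the mm9 build, and the same regions were listed for every library. Peaks outside the counted regions were left out. Each library had 18 to 31 autosomal peaks of 2000 bp or more there. The widest peak of each library, at 5799 to 5833 bp, was wider than any member. Width itself came from peaks called in these same libraries, so width, cover by peaks and level are given as descriptions with no test.

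As background, most open regions of a cell are short, a promoter or enhancer freed of a few nucleosomes. Longer open stretches are known from promoters within CpG islands, where CG pairs are dense and many control elements sit side by side, and from genes that set cell identity. The tailbud holds progenitors of the spinal cord and the somites, kept by WNT, FGF and retinoid signals and by transcription factors such as SOX2, CDX2 and SP8. Danforth's short tail is a retrotransposon insertion near Ptf1a that shortens the vertebral column and disturbs the notochord.

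The wide regions included ones at genes of patterning and of cell contact. Gene names here rest on background knowledge of mm9 positions, with windows reaching 100 kb past each developmental locus, since no mm9 annotation was used. A window can also hold other genes. The promoters of 4 genes at wide regions are shown as they stand in RefSeq for GRCm38.p6, 250 bases up to the transcript start, 5′ to 3′, with each CG pair in capitals, because CG density is the property by which long open promoters are known. Sox2 encodes a factor of neural and tailbud progenitors, Jun a subunit of the AP-1 factor, Vcan the matrix proteoglycan versican and Pcdh7 a protocadherin.
Sox2 (chr3:34649745-34649994, plus strand): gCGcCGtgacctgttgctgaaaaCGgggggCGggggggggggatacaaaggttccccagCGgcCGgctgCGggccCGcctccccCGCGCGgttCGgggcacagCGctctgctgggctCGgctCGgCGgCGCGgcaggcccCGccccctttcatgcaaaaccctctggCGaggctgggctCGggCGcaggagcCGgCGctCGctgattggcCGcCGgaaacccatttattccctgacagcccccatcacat
Jun (chr4:95052223-95052472, minus strand): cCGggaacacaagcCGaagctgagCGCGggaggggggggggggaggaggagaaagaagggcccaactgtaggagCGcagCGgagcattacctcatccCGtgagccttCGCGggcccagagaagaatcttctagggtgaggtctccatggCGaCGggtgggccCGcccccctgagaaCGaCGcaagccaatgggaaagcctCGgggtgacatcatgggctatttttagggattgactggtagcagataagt
Vcan (chr13:89742513-89742762, minus strand): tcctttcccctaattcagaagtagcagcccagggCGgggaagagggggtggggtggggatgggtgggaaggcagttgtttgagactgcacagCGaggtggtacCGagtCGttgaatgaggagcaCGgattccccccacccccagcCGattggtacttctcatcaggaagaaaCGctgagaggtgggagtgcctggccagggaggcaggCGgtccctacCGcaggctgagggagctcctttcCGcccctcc
Pcdh7 (chr5:57717831-57718080, plus strand): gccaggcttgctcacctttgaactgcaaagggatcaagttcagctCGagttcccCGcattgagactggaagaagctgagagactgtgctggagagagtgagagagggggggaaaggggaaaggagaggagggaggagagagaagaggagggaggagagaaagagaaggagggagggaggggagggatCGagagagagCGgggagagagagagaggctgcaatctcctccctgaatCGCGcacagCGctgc
The search was for the letters CG, which read the same on both strands. Sox2 held 27 CG pairs, and 8.16% of 27025 RefSeq promoters held as many or more. Jun held 15 (27.5% of promoters held as many), Vcan 10 (38.2%) and Pcdh7 7 (46.5%). Cdx2, not shown, held 13 (31.8%), and the first of several RefSeq entries for Sp8 held 1 (91.7%). The median over all promoters was 6. At the developmental loci listed further on it was 14 for those with a wide region (14 of 20 matched by symbol) and 13 for those with none (51 of 68). Both medians lay above the 6 of all promoters, and they do not set the loci with a wide region apart from the listed loci with none. Loci without a match were left out, and CG density was not tested. These coordinates are of another build than the counted regions, so whether each promoter lies inside its wide region was not established. The wide region at Sox2 was chr3:34547802-34550150 (mm9), at Jun chr4:94716709-94720410, at Vcan chr13:89878540-89882718 and at Pcdh7 chr5:58105320-58109631. Jun, Vcan and Pcdh7 were chosen after the widest regions had been seen.

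The 941 regions were 3.53% of all regions and covered 2.24 Mb, or 8.92% of the counted sequence. Their width ran from 2000 to 4648 bp with a median of 2249 bp, against a median of 852 bp in the other 25679 regions. Of the members, 686 lay below 2500 bp, 183 between 2500 and 2999 bp, and 72 reached 3000 bp. The threshold fell in a continuous range. The 3 regions just inside it, at 2000, 2001 and 2001 bp, had mean levels of 40.1, 261 and 107 CPM (the count as a share of the library's total count, scaled to 1000000). The 3 just outside, each 1999 bp wide, had 36.2, 31.3 and 84.0 CPM. The 121 regions less than 50 bp above the threshold had a median of 34.6 CPM per kb of width, and the 143 up to 50 bp below it had 34.3.

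Wide regions held many counts, and only slightly more per kb than the rest. Their median level was 88.0 CPM (range 25.9 to 552) against 25.005 CPM in the other regions. Per kb of width the medians were 37.6 and 32.8 CPM, a ratio of 1.15. By total level 540 members (57.4%) were in the top 10% of all regions, while by level per kb 172 (18.3%) were, and 377 (40.1%) lay below the median of the other regions. The median level per kb was higher in wider classes, from 36.4 CPM at 2000 to 2499 bp to 38.8 at 2500 to 2999 bp and 44.3 at 3000 bp or more. It was 30.5 at 500 to 999 bp and 35.1 below 500 bp, so the order does not hold from the narrowest up. Among regions with a peak in all 8 libraries the ratio of wide to other was 0.974, which turns its direction, and such regions were 78.7% of the members and 39.9% of the rest.

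**Figure D1:**
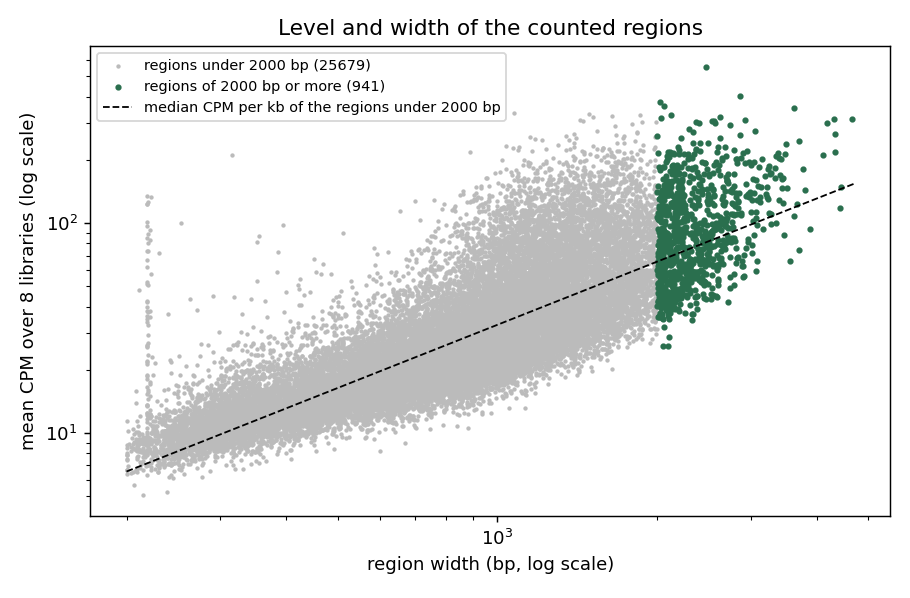
Mean CPM over 8 libraries (vertical, log scale) by region width in bp (horizontal, log scale), 1 point per region, with the 941 wide regions in green and the other 25679 in grey. The dashed line is the median level per kb of the other regions (32.8 CPM per kb), and the wide regions lie on both sides of it, 377 of them below.

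The densest wide region was chr5:109985761-109988235, 2475 bp, with 557, 513, 540 and 538 CPM in WT and 531, 553, 537 and 648 CPM in Sd/Sd. It held 223 CPM per kb on average and overlapped between the genotypes. Next in level per kb were chr8:4677238-4679264 (187), chr9:94437443-94439498 (175), chr13:85427669-85429698 (156) and chr5:46247330-46249453 (154). At the other end, 5 members held 12.4 to 15.4 CPM per kb, and none of these 5 had a peak in every library. The lowest, chr8:41028702-41030797, had 28.4, 22.5, 26.4 and 24.3 CPM in WT and 22.5, 23.0, 32.9 and 27.3 in Sd/Sd. A peak was called there in 2 Sd/Sd libraries and in no WT library, with levels that overlapped throughout.

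In a single library a wide region was mostly 1 shorter peak. The authors called peaks in each library alone, and the mean number of peaks inside a member was 1.04, 1.01, 0.977 and 1.04 in WT libraries 1 to 4 and 1.06, 1.04, 1.06 and 1.08 in Sd/Sd. Exactly 1 peak in all 8 libraries was found for 491 members (52.2%). In 309 members (32.8%) some library had 2 or more peaks, against 131 of the other regions (0.51%). Of those 309, 308 had 1 peak in another library, and only chr10:128325871-128329270 was split in all 8. A single peak of 2000 bp or more was absent from every library in 372 members (39.5%), of which 283 never held more than 1 peak in a library. Each of these 283 was thus wider than any peak inside it. One library alone supplied a single peak of 2000 bp or more in 306 members, 4 libraries or more in 110, and all 8 in 13.

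The 13 members that were wide in every library had a median of 74.6 CPM per kb and a median width of 2861 bp. They include the densest region, the widest one, and the region at Adamts5, which encodes a protease that cuts versican and aggrecan. At Adamts5 (chr16:85898738-85902155, 3418 bp) levels were 187, 218, 200 and 191 CPM in WT and 185, 206, 206 and 223 in Sd/Sd, with overlap. The 372 members never wide in 1 library had a median of 28.4 CPM per kb, and the 569 wide in some library 44.2. The bases under a peak in all 8 libraries made up a median of 20.7% of a member's width, and there were none in 241 members (25.6%). In 68 members (7.23%) these shared bases fell into 2 separate segments, against 10 of the other regions.

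How much of a member was under peaks moved with the library's total count. The median share under peaks was 57.4, 52.3, 48.6 and 60.9% in WT libraries 1 to 4, and 63.4, 53.0, 55.8 and 71.9% in Sd/Sd. The total counts in the same order were 3451166, 3019937, 2873918 and 3415062 in WT and 3600575, 3090233, 3315532 and 4180434 in Sd/Sd. Sd/Sd replicate 4 was highest in both and WT replicate 3 lowest in both. The number of members with a single peak of 2000 bp or more was 150, 117, 96 and 173 in WT and 198, 133, 132 and 272 in Sd/Sd, so the groups overlapped (134 ± 34.2 and 184 ± 66.4, mean ± SD, n = 4). The number with no peak was 59, 78, 99 and 53 in WT and 39, 67, 52 and 22 in Sd/Sd. The mean number of peaks per member did not overlap between the groups, by a small margin, 0.977 to 1.0425 for WT against 1.0436 to 1.08 for the mutants. The part that total count plays in these peak numbers was not tested.

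**Figure D2:**
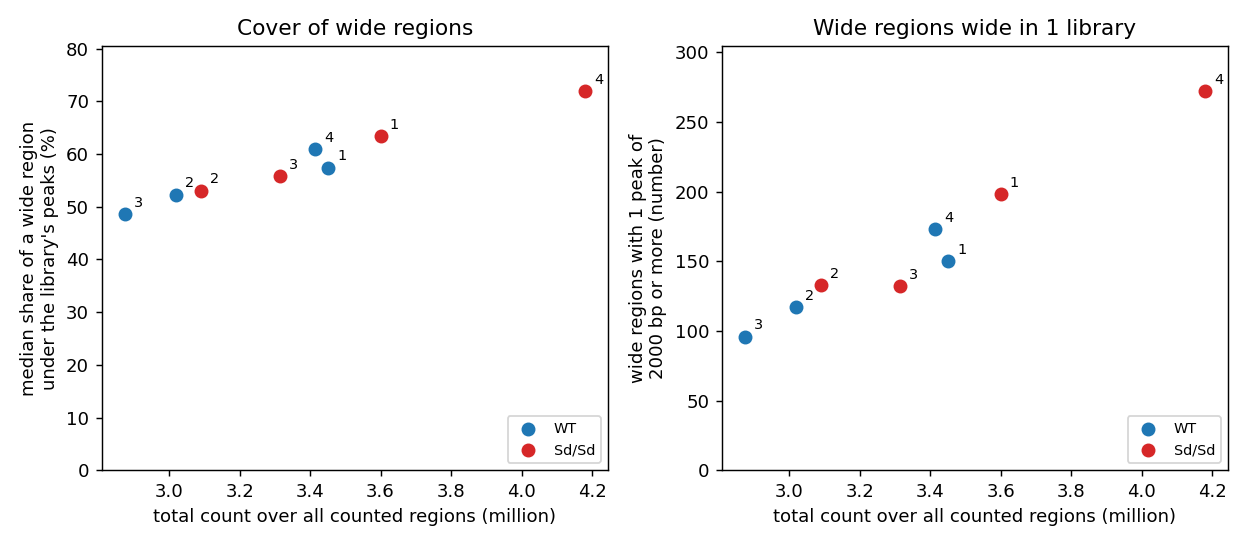
Each point is 1 library, numbered by replicate, WT in blue and Sd/Sd in red, by its total count (horizontal). The left panel gives the median share of a wide region under that library's peaks in percent and the right panel the number of wide regions with 1 peak of 2000 bp or more. Sd/Sd replicate 4 has the highest total count (4180434), 71.9% and 272 regions.

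The 10 widest regions ran from 3791 to 4648 bp and from 24.1 to 72.4 CPM per kb. The widest was chr1:173444155-173448802, with 352, 311, 326 and 297 CPM in WT and 294, 329, 293 and 304 in Sd/Sd. It was wide in all 8 libraries and the genotypes overlapped. Next came chr17:71198608-71203039 at Tgif1, a repressor of TGF-beta and retinoid signals, at 149 CPM. There only 1 library had a peak of 2000 bp or more, and no base was under a peak in every library. The region at Efna5, a ligand of Eph receptors, was chr17:63229399-63233716 and averaged 265 CPM. At Pcdh7 levels were 293, 312, 306 and 306 CPM in WT and 322, 314, 301 and 343 in Sd/Sd. At Vcan they were 288, 317, 271 and 297 CPM in WT and 315, 287, 305 and 320 in Sd/Sd. At Jun they were 236, 244, 222 and 248 CPM in WT and 271, 240, 249 and 262 in Sd/Sd. At Pcdh7, Vcan and Jun the highest library was Sd/Sd and the groups overlapped. Of the 10 widest, 9 had a higher and 1 a lower fitted mean in Sd/Sd, by log2 fold changes of -0.07 to 0.13, and none passed the test. Among all members 54.6% were higher, and regions measured in the same 8 libraries are not replicates of a genotype.

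Wide regions were spread over all 19 autosomes. They made up 2.37% of the regions on chromosome 19 and 4.91% on chromosome 13, the lowest and highest shares. The nearest other counted region lay a median of 25.6 kb away, close to the 24.9 kb of the other regions, and it lay within 5 kb for 9.88% against 11.5%. Joined where at most 50 kb separated them, 65 members (6.91%) formed 28 chains, of which 22 held 2 members, 5 held 3 and 1 held 6. The other 876 stood alone. Of 2368 bins of 1 Mb with a counted region, 716 held a wide one and 10 held 4 or more. The most, 8, lay at 173 to 174 Mb of chromosome 1, where 175 to 176 Mb held 5. The 3 neighbouring bins from 144 to 147 Mb of chromosome 4 held 4, 7 and 7. Bins at 177 to 178 Mb of chromosome 2 and 23 to 24 Mb of chromosome 13 held 5 each. The rest held 4 each, at 76 to 77 Mb of chromosome 13, 89 to 90 Mb of chromosome 15 and 114 to 115 Mb of chromosome 9. As background, the distal ends of mouse chromosomes 2 and 4 hold clusters of KRAB zinc finger genes, repressors of transposable elements. A link between dense bins and these clusters was not tested. The 15 wide regions from 144993487 to 146894670 on chromosome 4 had 19.2 to 87.0 CPM per kb. Of these 15, 12 had a lower and 3 a higher fitted mean in Sd/Sd, with log2 fold changes of -0.21 to 0.08, and none passed the adjusted test. Among all members 45.4% were lower. The 15 lie in 1 stretch and share the same 8 libraries, so they are not separate observations of a genotype difference.

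The chain of 6 spanned chr1:173431851-173499074, of whose 67224 bp the wide regions covered 18347 bp. The 11 counted regions within it, 3 of them with a peak in only 2 or 3 libraries, held 67.4 to 230 CPM per kb (median 97.4), against a median of 36.3 in the 20 regions flanking it. The 6 wide ones summed to 1721, 1707, 1756 and 1672 CPM in WT and 1554, 1708, 1586 and 1646 in Sd/Sd. The means were 1714 ± 34.9 and 1623 ± 67.7 (SD, n = 4 each), and Sd/Sd replicate 2 lay inside the WT range. Within the chain, chr1:173455001-173457696 had 220, 228, 227 and 215 CPM in WT and 188, 212, 190 and 191 in Sd/Sd, so the groups did not overlap. Its log2 fold change was -0.18 (SE 0.08), with an adjusted p of 0.797 in edgeR's quasi-likelihood test. High level did not always bring a peak there. At chr1:173462644-173463871, a region of 1228 bp in the chain, 103 CPM went with a peak in 2 of 8 libraries. Outside it, the flanking region chr1:173408001-173409982 had a peak in all 8 at 39.6 CPM.

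**Figure D3:**
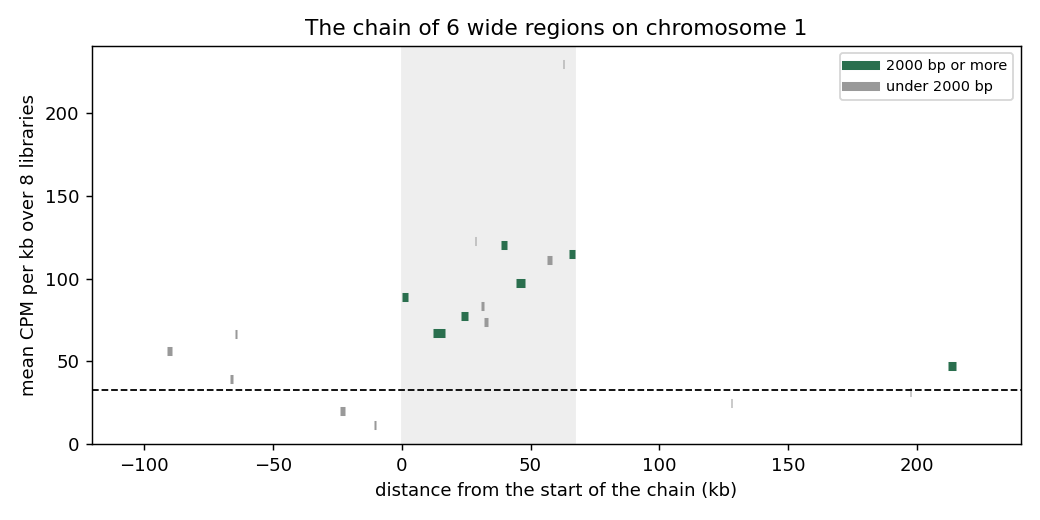
Mean CPM per kb over 8 libraries (vertical) of each counted region by its distance in kb from the start of the chain (horizontal), wide regions in green and narrower ones in grey, with the chain shaded. The dashed line marks 32.8 CPM per kb, the median of regions under 2000 bp, and all 11 regions of the chain stand above it, at 67.4 or more.

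Developmental loci held few of the wide regions. Windows at 88 loci, a list chosen with earlier results of these data known, held 22 members (2.34%) and 432 of the other regions (1.68%). With windows reaching 50 kb past each locus the shares were 2.13% and 1.26%, and with 250 kb they were closer, at 2.98% and 2.65%. The 22 fell at 20 loci. Over all windows 22 of 454 regions were wide (4.85%, against 3.53% of all regions). Among tailbud progenitor genes 8 of 72 were (11.1%), at 7 of 15 loci. The share was 10.5% for genes of limb, hindgut and lateral mesoderm (2 of 19) and 10% for growth and pluripotency (2 of 20). For kidney and intermediate mesoderm it was 7.14% (2 of 28). Each of those other classes rests on 2 wide regions, too few to compare shares. The tailbud loci were Sox2, Cdx2, Sp8, the WNT target Axin2, the FGF feedback inhibitors Spry2 and Dusp6, and Rarb, a retinoic acid receptor gene with 2. The presomitic and somite genes had 1 of 68, the 5 listed hedgehog and notochord loci, which do not include Gli1, 0 of 32, and those of blood and endothelium 0 of 22. Neural tube genes had 4 of 88, 2 of them at the paired zinc finger genes Zic2 and Zic5, where they lay within 13672 bp. Windows at Meis2, Nkx6-1, Nr2f2, Nog, Hand2, Sox17, Sall1, Sall4 and Lin28b were among those that held 1 each. At the Hox clusters, which pattern the body axis from head to tail, HoxA, HoxB and HoxD had none and HoxC had 1 of 22.

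As a set the 22 regions at developmental loci had medians of 86.7 CPM and 37.8 CPM per kb, near the 88.0 and 37.6 of all members. Several of the 22 were among the more accessible members. The Spry2 region (chr14:106296174-106298576) had 221, 205, 213 and 231 CPM in WT and 229, 213, 200 and 243 in Sd/Sd. The Dusp6 region (chr10:98723797-98726259) had 181, 209, 187 and 181 CPM in WT and 210, 174, 202 and 195 in Sd/Sd. Both overlapped between genotypes, and they held 91.3 and 78.1 CPM per kb. The widest was at Sp8 (chr12:120084895-120088299, 3405 bp), a zinc finger factor of the tailbud and limb ridge, with 177, 165, 178 and 167 CPM in WT and 170, 170, 169 and 162 in Sd/Sd. The wider one at Zic2 and Zic5 (chr14:122861873-122864964, 3092 bp) had 146, 152, 165 and 144 CPM in WT and 173, 149, 135 and 139 in Sd/Sd. The HoxC region (chr15:102828422-102831059, 2638 bp) had 107, 98.7, 87.3 and 76.1 CPM in WT and 99.1, 101, 87.2 and 82.3 in Sd/Sd. All 3 overlapped between the genotypes. Lower in level were Sox2, with 55.3, 62.6, 69.9 and 51.2 CPM in WT and 61.7, 51.8, 64.5 and 51.9 in Sd/Sd, and Cdx2 (chr5:148103885-148106037), a caudal homeobox gene. Cdx2 had 40.9, 50.3, 50.1 and 35.1 CPM in WT and 41.4, 41.7, 47.7 and 33.5 in Sd/Sd. Neither was wide in any single library, which held for 10 of the 22.

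Of the 22, 10 had a higher and 12 a lower fitted mean in Sd/Sd, 2 had an unadjusted p under 0.05 (6.06% of all regions did), and in 1 the groups did not overlap (3.2% of all regions). Counts this small are near those shares. The 2 were in the windows of Msgn1, a regulator of presomitic mesoderm, and Hand2, a factor of lateral mesoderm and limb. In the Msgn1 window (chr12:11271675-11274057) levels were 142, 143, 142 and 129 CPM in WT and 111, 126, 112 and 123 in Sd/Sd. Every Sd/Sd library lay below every WT library there. The log2 fold change was -0.23 (SE 0.09), with an adjusted p of 0.721 in edgeR, so the difference did not pass. In whole tailbuds a lower level from fewer cells open there and from less open chromatin per cell cannot be told apart. At Hand2 (chr8:59799217-59801255) levels were 83.7, 89.7, 102 and 83.7 CPM in WT and 87.5, 76.1, 66.7 and 78.5 in Sd/Sd, with a log2 fold change of -0.21 and an adjusted p of 0.802 in edgeR.

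The study's title concerns hedgehog signalling, and 1 of the genes named after the widest regions were seen was Gli1, a transcription factor that is both effector and target of that pathway. Its wide region (chr10:126775951-126779618, 3668 bp) had 111, 132, 145 and 117 CPM in WT and 136, 123, 116 and 109 in Sd/Sd. The groups overlapped, at 126 ± 15.5 and 121 ± 11.4 CPM (mean ± SD, n = 4 each). The log2 fold change was -0.06 with a 95% interval of -0.23 to 0.12 and an adjusted p of 0.974 in edgeR. Among the 12 genes named in this way, Gli1 included, log2 fold changes ran from -0.08 to 0.11 and the groups overlapped at each.

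No wide region differed between the genotypes at an adjusted p under 0.05 (edgeR's quasi-likelihood test, Benjamini-Hochberg over 26620 regions). Over all regions 0.0188% passed. With limma's voom 4 members passed, of 9 over all regions, and in edgeR without robust variance 4 of 15. With the replicate number as a block 2 members passed, of 23 over all regions. All of these members were among the 12 of highest variation between libraries. The smallest adjusted p among members was 0.549. An unadjusted p under 0.05 was found for 63 members (6.70%, against 6.06% of all regions). Of these, 35 were higher (3.72%, against 2.98%) and 28 lower in Sd/Sd (2.98%, against 3.09%). With upper-quartile scaling the split was 39 higher and 17 lower, and with DESeq2 it was 27 and 14, with 0 adjusted calls by either. Groups did not overlap at 22 members (2.34%, against 3.2%). All these shares lie near those of all regions. The median log2 fold change was 0.01, with 514 members higher and 427 lower, against 0.00 in the other regions. Direction among members is not free of how they were chosen, since peaks of these same libraries set their width. A single peak of 2000 bp or more came only from Sd/Sd libraries at 252 members and only from WT at 116. Sd/Sd replicate 4 alone supplied it at 94. Without that library the members' median log2 fold change was -0.0016, against -0.0031 over all regions.

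The comparison was tighter here than at narrower regions. The 95% interval of the log2 fold change reached a median of 0.19 to each side in members and 0.33 in the others. It lay wholly within a 1.25-fold change for 693 members (73.6%) against 20.2% of the others, and within a 1.5-fold change for 927 (98.5%) against 75.8%. The spread between libraries, as edgeR's biological coefficient of variation, had a median of 8.14% in members and 12.9% in the others. Among regions of like mean count, between 207 and 450, it was 8.14% in 471 wide and 8.21% in 2929 other regions. The method draws each region's coefficient toward a trend with count. Likeness at like count is therefore partly set by the method and does not compare the observed spreads. Wide regions gathered 9.65, 9.92, 9.79 and 9.81% of the counts in WT libraries and 9.81, 9.89, 9.73 and 10.0% in Sd/Sd. The group means were 9.79 ± 0.113% and 9.86 ± 0.124% (SD, n = 4), which differ by less than 1 SD.

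**Figure D4:**
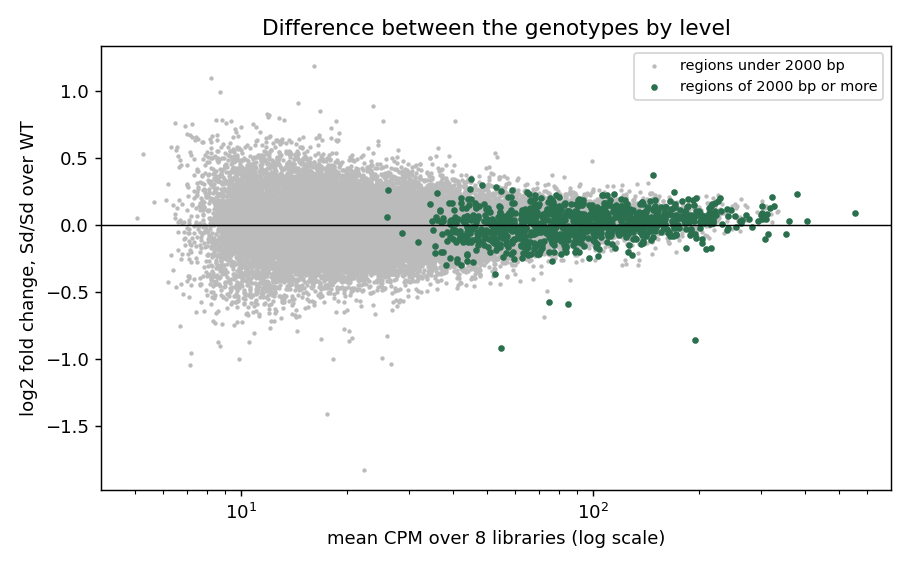
Fitted log2 fold change, Sd/Sd over WT (vertical), by mean CPM over 8 libraries (horizontal, log scale), 1 point per region, with wide regions in green and the others in grey. Most wide regions lie close to 0, and the lowest green points are regions on chromosomes 7 and 2 whose libraries vary within a genotype.

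The members of smallest p were the following. At chr8:4677238-4679264, which is also among the densest, levels were 331, 324, 366 and 379 CPM in WT and 386, 425, 387 and 434 in Sd/Sd. Every Sd/Sd library lay above every WT library. The means were 350 ± 26.4 and 408 ± 25.2 CPM (SD, n = 4 each), with a log2 fold change of 0.23 (SE 0.07) and an adjusted p of 0.549 in edgeR. At chr3:57378729-57380761 levels were 100, 118, 105 and 100.4 CPM in WT and 126, 123, 122 and 123 in Sd/Sd, again without overlap (adjusted p = 0.743 in edgeR). At chr1:21950490-21952649, chr14:15177782-15180407 and chr1:148570457-148572479 the log2 fold changes were 0.25, 0.21 and 0.34, and the groups overlapped. Lower in Sd/Sd was chr3:96303387-96305807, with 58.8, 62.9, 68.9 and 46.8 CPM in WT and 60.3, 38.2, 40.7 and 42.6 in Sd/Sd. There Sd/Sd replicate 1 lay within the WT range, and the log2 fold change was -0.37 (SE 0.12, adjusted p = 0.586 in edgeR). At chr1:180458174-180460992, chr14:76813807-76815916 and chr10:110315077-110317337 it was -0.27, -0.25 and -0.23, with overlap. These 9 regions and the one in the Msgn1 window kept their sign in 17 of 17 alternative fits, and none passed in any. They were picked by smallest p and every fit drew on the same 8 libraries, so a kept sign is no further support.

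A few wide regions varied strongly between libraries of 1 genotype. Across the 8 libraries the highest CPM of a member was a median of 1.31 times its lowest, and 11 of 941 reached 2-fold. At 12 members (1.28%, against 0.833% of the others) the coefficient of variation reached 20%. The most variable was chr7:38960911-38963835, with 112, 366, 357 and 167 CPM in WT and 162, 219, 124 and 46.2 in Sd/Sd. WT replicates 2 and 3 stood high, and Sd/Sd replicate 4 was lowest by a wide margin. At chr7:46458423-46460695 the levels were 33.3, 102, 101 and 51.0 CPM in WT and 44.7, 51.8, 41.0 and 13.9 in Sd/Sd, with the same libraries high and low. Of the 13 counted regions from the first to 46595656 on chromosome 7, a stretch chosen after its values were seen, WT replicates 2 and 3 were the highest pair in 11 and Sd/Sd replicate 4 the lowest in 10. No counted region lay in 7114134 bp of this stretch.

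On chromosome 2 another pair varied in a different way. At chr2:77797805-77801505 levels were 88.4, 87.1, 109 and 76.1 CPM in WT and 49.7, 47.6, 50.7 and 88.7 in Sd/Sd. At chr2:77858245-77860773 they were 104, 107, 118 and 82.3 CPM in WT and 47.5, 51.5, 54.9 and 112 in Sd/Sd. In both, Sd/Sd replicates 1 to 3 lay below every WT library and replicate 4 within the WT range. The same held for Sd/Sd replicates 1 to 3 in all 5 counted regions from 77783546 to 77860773, a stretch also chosen after its values were seen. With all 8 libraries the log2 fold changes were -0.57 and -0.59 (adjusted p = 0.81 and 0.874 in edgeR). Without Sd/Sd replicate 4 they were -0.86 and -0.99 (adjusted p = 1.18e-09 and 2.33e-14 in edgeR), so these values moved with a single library. The outcome also moved with the method. With all 8 libraries kept, both regions passed in limma's voom with quality weights (adjusted p = 0.000747 and 0.000159). Both also passed in edgeR without robust variance (adjusted p = 0.00548 and 0.00669). Further along chromosome 2, near the zinc finger clusters, 3 members varied more among WT than among Sd/Sd libraries. At chr2:176857577-176860958, for example, levels were 121, 326, 254 and 218 CPM in WT and 211, 208, 194 and 197 in Sd/Sd. WT replicate 1 was also lowest at chr2:174788150-174791405 (52.7 CPM) and chr2:177014015-177016224 (40.3 CPM).

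**Figure D5:**
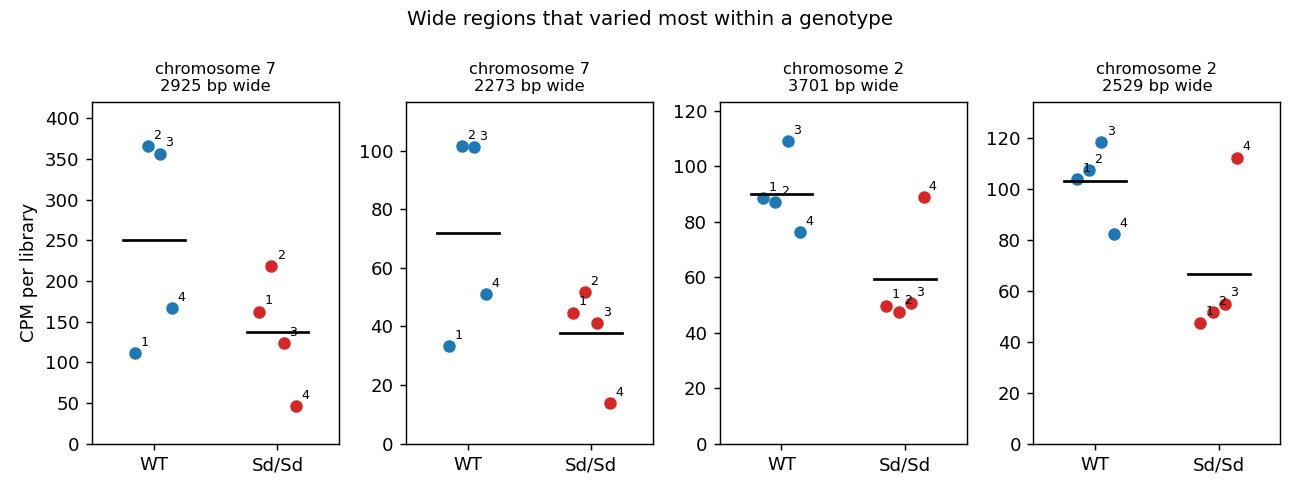
CPM per library (vertical, from 0) at 4 wide regions, WT in blue and Sd/Sd in red, with points numbered by replicate and a black line at the mean of each group of 4. On chromosome 7 WT replicates 2 and 3 stand high (366 and 357 CPM at the wider region) and Sd/Sd replicate 4 lowest (46.2), and on chromosome 2 Sd/Sd replicate 4 (88.7 CPM at the wider region) lies with WT.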

How the data were processed

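Per the submitters' processing notes, coordinates are of mm9 and the tools include BWA 0.7.15-r1140, MACS2 2.1.1.20160309 and bedtools 2.26.0, with settings not given in the sources. The authors deposited a whole-number count per region and library, with no normalization, over 1 set of 26620 regions, and a list of broad peaks per library with the caller's score, fold enrichment (a ratio), −log10 p-value and −log10 q-value. What 1 count stands for, reads or fragments, is not stated. A region can be wider than any peak in it, and its level per kb then averages over bases that some libraries leave uncovered. A region can also be narrower than a peak it overlaps. Regions under 2000 bp overlapped single peaks of up to 2694 bp. Every counted region overlapped a peak in at least 2 libraries.

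Members and lists were chosen with earlier results of these data known. CPM is the count divided by the library's total over all regions, times 1000000, with no further scaling. A peak was inside a region where they shared at least 1 bp. Sd/Sd was tested against WT on the deposited counts with edgeR 4.0.16 in R 4.3.3 (quasi-likelihood F test, robust, TMM, genotype only, two-sided), with Benjamini-Hochberg adjustment over 26620 regions. The filter on low counts removed 0. Total counts ran from 2873918 to 4180434, and a wide region's median count per library from 254 to 363. The procedure was tested on simulated data. Alternatives were DESeq2 1.42.0, limma 3.58.1 with voom, other scalings, filters, widths, gaps and windows, the replicate number as a block, and fits without 1 library. Named regions were the 10 widest, the 5 of highest CPM, the 5 highest and 5 lowest per kb, the 5 with most peaks, any adjusted p under 0.05, the 5 of smallest p each way, chains of 4 or more, those in Hox windows, those at other loci among the 100 widest, and 3 on each side of 2000 bp. The regions at the remaining loci, the 12 added genes and the variable regions were named after their values were seen. Chromosome and order of the 100 loci and added genes matched RefSeq (GRCm38.p6) on 18 of 18 chromosomes. The region at 1 locus is not reported here.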

Additional observations from a re-analysis of the deposited data

Results flagged for a closer look

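The groups of 4 libraries examined numbered 102. Most were levels at named regions, and the rest were summaries per library or the summed level of the chain on chromosome 1. In 8 of the 102, all at named regions, 1 library stood apart from the other 3. Its gap to the nearest, divided by the group's range, was above Dixon's 95% critical value. That level by construction marks about 1 in 20 groups of like values. WT replicate 1 had 103 CPM at chr6:133703089-133706961, against 88.1 to 90.5 in the others of its group. Sd/Sd replicate 4 had 360 CPM at chr13:85427669-85429698 (others 316 to 322). WT replicate 3 had 54.3 CPM at chr15:60522904-60525623 (others 38.1 to 39.1). Sd/Sd replicate 1 had 126 CPM at chr3:57378729-57380761 (others 122 to 123). WT replicate 4 had 129 CPM in the Msgn1 window at chr12:11271675-11274057 (others 142 to 143). In the chain on chromosome 1, Sd/Sd replicate 2 had 212 CPM at chr1:173455001-173457696 (others 188 to 191) and WT replicate 3 had 271 CPM at chr1:173496862-173499074 (others 250.1 to 253). Sd/Sd replicate 4 had 162 CPM in the Sp8 window at chr12:120084895-120088299 (others 169 to 170).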

How the results depend on the processing

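The count of members with an adjusted p under 0.05 was 0 in the reported fit, 4 with voom and quality weights, 4 in edgeR without robust variance and 2 with the replicate block, and leaving out 1 library gave 0 to 2. The 4 were the variable pairs on chromosomes 2 and 7. Of regions of 1500 bp or more, 2 passed. At an unadjusted p under 0.05, the count higher in Sd/Sd was 35 as reported, 53 with the replicate block, 119 at 1500 bp or more, 1 at 3000 bp or more, and 20 to 55 with 1 library left out (the lowest without mutant library 4, the highest without mutant library 1). The count lower in Sd/Sd was 28 as reported, 17 with upper-quartile scaling, 14 with DESeq2, 128 at 1500 bp or more, 2 at 3000 bp or more, and 15 to 38 with 1 library left out (15 without WT replicate 2). The deviations of same-numbered libraries had correlations of 0.0037, 0.0082, -0.0011 and 0.092 for replicates 1 to 4. WT replicate 4 and Sd/Sd replicate 4 were each other's closest partner. The labels do not say what the numbers mark, so they were not taken as pairs. Over all regions 23 passed with the replicate block, 9 with voom and quality weights and 15 in edgeR without robust variance, against 5 as reported. The ratio of CPM per kb was 1.08 at 1500 bp, 1.35 at 3000 bp and 0.974 where all 8 libraries had a peak. Mean peaks per member were 0.321 at a q of at most 1e-05, 0.947 at 1500 bp and 1.33 at 3000 bp. There were 28 chains as reported, 16 with gaps of at most 25 kb, 60 with 100 kb, 303 at 1500 bp and 2 at 3000 bp. Developmental loci held 77 regions at 1500 bp and 2 at 3000 bp. Other widths change how many regions are counted, and the cause of the other changes was not tested. Depth limits the members with fewest counts, at 58 in 1 library.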
